A study of Mus musculus with 4 samples.

Results

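Prostaglandins are lipid signals made from arachidonic acid, and 10 genes of their synthesis, breakdown and signalling were examined in cultured mouse rib chondrocytes that lack or retain Senp6, which encodes a protease that removes SUMO from other proteins. The genes were chosen by symbol, namely Pla2g4a, Ptgs1, Ptgs2, Ptges, Ptges2, Ptges3, Ptgis, Hpgd, Ptger2 and Ptger4. All 10 were among the 18298 genes with a read in any library and among the 14123 genes abundant enough to be tested. Chondrocytes, the cells that form cartilage, were taken from the rib cartilage of C57BL/6 embryos at E18.5 and grown in culture to passage 1. The mutant cells carried Dermo1-Cre;Senp6f/f and were sequenced as 2 libraries, here called mutant replicates 1 and 2. The 2 control libraries carried Senp6f/f without Cre, so the floxed alleles were shared by both groups. Dermo1-Cre is driven from the Twist2 locus, which is active in progenitors of several mesenchymal tissues and not in chondrocytes alone. Nothing in the labels says whether a library came from 1 embryo or from a pool, so the p-values measure only the spread between these libraries, which may in part be technical.

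Cytosolic phospholipase A2 (Pla2g4a) frees arachidonic acid from membranes, and the cyclooxygenases COX-1 (Ptgs1) and COX-2 (Ptgs2) turn it into the unstable intermediate prostaglandin H2. Terminal synthases convert this intermediate into prostaglandin E2 (Ptges, Ptges2, Ptges3) or prostacyclin (Ptgis), and 15-hydroxyprostaglandin dehydrogenase (Hpgd) inactivates the products. The receptors EP2 (Ptger2) and EP4 (Ptger4) answer prostaglandin E2 by raising cyclic AMP. COX-2 and the synthase of Ptges are known as the inducible enzymes of the pathway, and prostaglandin E2 is known for its part in the growth, repair and inflammation of cartilage and bone.

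The libraries held about 21000000 to 31000000 reads counted on genes. Over the log2 CPM (counts scaled to the library total) of the tested genes, the mutant libraries lay at a Euclidean distance of 45.2 from each other and the control libraries at 64.6, and the distances from control replicate 1 to mutant replicates 1 and 2 were 80.8 and 88.7. The distances from control replicate 2 to mutant replicates 1 and 2 were 65.5 and 77.2. Control replicate 2 thus lay about as far from mutant replicate 1 as from control replicate 1. Control replicate 1 stood farthest from the rest, and the results below are also given without it where that matters. The RNA of Xist, a transcript of the inactive X chromosome in females, was read 11354 times in mutant replicate 2 and at most 5 times in each of the other libraries. Senp6 itself was at 10.8 and 18.0 RPKM in the controls and 12.0 and 8.07 in the mutants, with overlapping groups. RPKM are reads scaled to the gene length and to the reads of the library. The Senp6 counts cover the whole gene, and reads on the floxed exons were not analysed here. All 10 chondrocyte markers were detected in every library, among them Sox9, Col2a1 and Acan, and all 10 were lower in both mutants than in both controls. Their summed level was 840 and 839 RPKM in the controls and 407 and 538 in the mutants. Summed smooth muscle markers were at 1015 and 1197 RPKM in the controls and 1581 and 1439 in the mutants. The part of these differences in the results on prostaglandin genes was not tested, and in bulk RNA fewer cells of a type cannot be told apart from less RNA per cell.

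In the mutant libraries, the genes that start the pathway stood higher and the gene that ends it stood lower than in the controls. Ptgs2 averaged 4.65 times its control level in the mutants, Pla2g4a 1.95 times and Ptgs1 1.53 times, while Hpgd averaged 3.12 times its mutant level in the controls. The synthases Ptges, Ptges2, Ptges3 and Ptgis had mutant means within 0.934 to 1.19 times the control means. None of these differences passed the quasi-likelihood test of edgeR at a Benjamini-Hochberg adjusted p of 0.05, nor did any other of the 14123 genes (0%). At an unadjusted p under 0.05, 3 of the 10 genes were higher in the mutants (Pla2g4a, Ptgs1 and Ptgs2), against 9.29% of all tested genes, and 1 was lower (Hpgd), against 6.28%. DESeq2 called Pla2g4a higher (3.07% of all tested genes) and Hpgd lower (1.86%), and limma on log2(RPKM + 1) or log2(RPKM + 0.1) called none. With the replicate number of the labels as a block, edgeR called Ptgs2 higher (0.595% of all genes) and no member lower (0.234%). In 3 of the 10 genes both mutants were above both controls (28.3% of all tested genes), in 5 both were below (19.2%), and in 2 the groups overlapped. The median log2 fold change of the 10 genes was -0.13, beside 0.0097 over all tested genes.

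**Figure D1:**
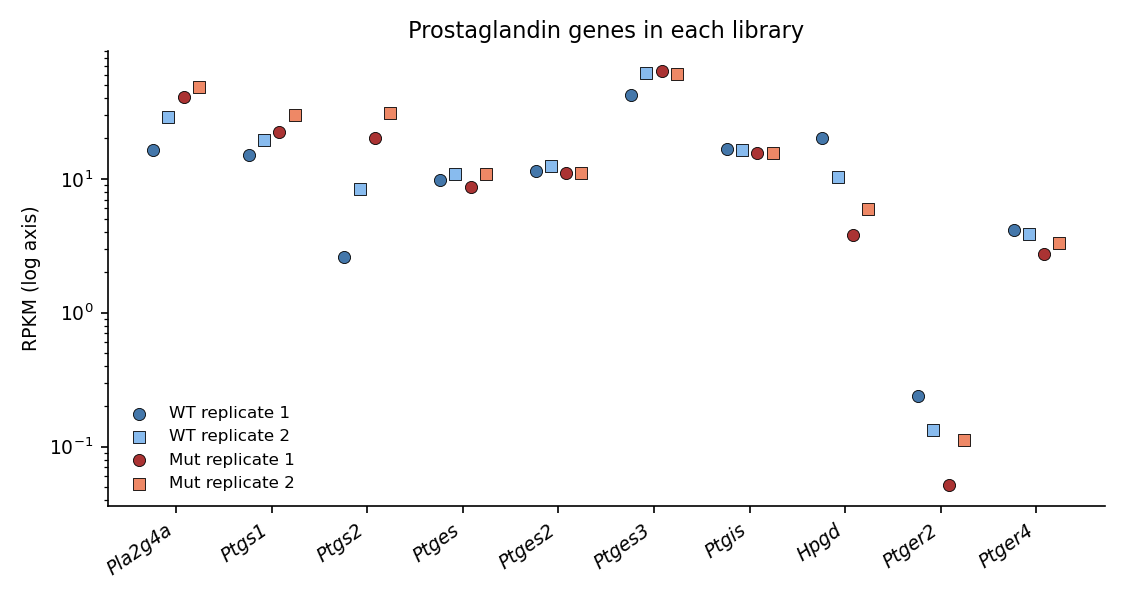
RPKM of the 10 prostaglandin genes on a log axis, with a point for each library (circles for replicate 1, squares for replicate 2, blue for control and red for mutant). Ptgs2 spans 2.59 to 31.1 RPKM with both mutants above both controls, Hpgd runs the other way from 20.3 down to 3.83, and the synthases Ptges, Ptges2 and Ptgis lie between 8.63 and 16.7 in every library.

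Promoter sequences are shown for Ptgs2, Hpgd and Pla2g4a because these 3 members had the smallest unadjusted p-values. Each is the stretch of 250 bases before a RefSeq transcription start on GRCm38.p6, read 5′ to 3′ on the strand of the gene. Capitals mark exact matches to a searched motif on either strand. Ptgs2 lies on the plus strand (chr1:150099781-150100030), Hpgd on the plus strand (chr8:56294302-56294551) and Pla2g4a on the minus strand (chr1:149961291-149961540, the more upstream of its RefSeq starts).
Ptgs2: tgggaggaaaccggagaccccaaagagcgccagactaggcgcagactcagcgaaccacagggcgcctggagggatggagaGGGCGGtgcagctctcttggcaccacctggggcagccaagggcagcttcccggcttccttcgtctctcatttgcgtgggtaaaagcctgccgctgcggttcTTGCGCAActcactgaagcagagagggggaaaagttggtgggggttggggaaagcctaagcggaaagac
Hpgd: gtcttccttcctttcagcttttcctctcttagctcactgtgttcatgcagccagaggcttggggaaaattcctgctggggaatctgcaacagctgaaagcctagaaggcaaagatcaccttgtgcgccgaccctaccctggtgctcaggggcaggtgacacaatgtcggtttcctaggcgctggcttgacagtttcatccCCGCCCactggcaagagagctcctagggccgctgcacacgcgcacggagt
Pla2g4a: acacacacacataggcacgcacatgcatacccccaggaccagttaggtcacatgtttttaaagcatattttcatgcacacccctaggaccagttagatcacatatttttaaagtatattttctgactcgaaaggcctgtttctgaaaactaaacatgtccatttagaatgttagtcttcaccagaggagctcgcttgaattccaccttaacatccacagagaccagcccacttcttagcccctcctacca

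The motifs searched were the E-box CACGTG, the cyclic AMP response element TGACGTCA, the C/EBP palindrome TTGCGCAA, the TATA box TATAAA, the AP-1 site TGANTCA, the GC box GGGCGG and the CCAAT box. The Ptgs2 window held the C/EBP palindrome from position -69 and a GC box from position -170, counted from the start site. The palindrome was present in 54 of 32536 such windows (0.166%), and the GC box in 32.97%. The Hpgd window held a GC box on the opposite strand from position -50, and the Pla2g4a window shown held none of the motifs. Across the other windows of members, the GC box was found in those of Ptges, Ptges3 and Ptger4, the E-box (6.04% of all windows) in that of Ptges2, and the CCAAT box (33.8%) in those of Ptger2 and Ptger4. The cyclic AMP response element (1.56% of all windows) and the AP-1 site (6.73%) matched in no window of a member, and the TATA box (12.3%) matched only in that of a downstream start of Pla2g4a. Windows were found for 9 of the 10 genes, all but Ptgis. Such matches describe the letters of the windows and no binding was measured. In the RefSeq gene order, Pla2g4a and Ptgs2 are neighbours on chromosome 1 and are read in opposite directions, and Ptger2 lies next to Ptgdr on chromosome 14. Ptgs1, Ptges, Ptges2 and Ptgis are on chromosome 2, Hpgd on chromosome 8, Ptges3 on chromosome 10 and Ptger4 on chromosome 15.

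Release of arachidonic acid was represented by Pla2g4a (Entrez Gene 18783, 2846 bases of gene length in the files). Pla2g4a was at 16.5 and 29.1 RPKM in control replicates 1 and 2 and at 40.9 and 48.1 RPKM in mutant replicates 1 and 2, from 986, 2163, 3606 and 3863 reads. Both mutants were above both controls, and the controls stood further apart from each other than the mutants did. The group means were 22.8 ± 8.90 and 44.5 ± 5.07 RPKM (SD, n = 2 each), and the log2 fold change was 0.93 ± 0.25 (standard error; edgeR adjusted p = 0.156). DESeq2 gave an adjusted p of 0.00913 for this gene. On the log2 CPM scale the lower mutant was 0.50 above the higher control, while control replicate 2 was 0.76 above control replicate 1.

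Among the cyclooxygenases, Ptgs2 (Entrez Gene 19225, 4150 bases) had the widest difference of the 10 genes. Its level was 2.59 and 8.43 RPKM in the controls and 20.1 and 31.1 RPKM in the mutants, from 226, 914, 2584 and 3651 reads. The mutants were both higher, by 1.26 on the log2 CPM scale at the narrowest gap, but the controls alone differed by 1.64. The means were 5.51 ± 4.13 and 25.6 ± 7.82 RPKM (SD, n = 2 each). The log2 fold change of 2.18 ± 0.50 had an edgeR adjusted p of 0.122 and a DESeq2 adjusted p of 0.0922, and with the replicate block the edgeR adjusted p was 0.0369. Leaving out single libraries moved this fold change between 1.58 and 3.20, with the lower end reached without control replicate 1.

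Ptgs1 (Entrez Gene 19224, 2864 bases), usually described as the constitutive cyclooxygenase, was at 15.0 and 19.4 RPKM in the controls and 22.3 and 30.1 RPKM in the mutants. The groups did not overlap, with a gap of 0.21 on the log2 CPM scale that was smaller than the spread within either group. Its log2 fold change was 0.57 ± 0.19 (edgeR adjusted p = 0.221, DESeq2 adjusted p = 0.130). The annotation has a transcript of unknown status, Gm43621, with an exon opposite that of Ptgs1, and the counting is not stated to use strand.

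The balance of the cyclooxygenase transcripts differed between the groups within each library. The ratio of Ptgs2 to Ptgs1 RPKM was 0.173 and 0.434 in the controls and 0.901 and 1.03 in the mutants. Ptgs2 thereby made up 14.8% and 30.3% of the summed cyclooxygenase RPKM in the controls and 47.4% and 50.9% in the mutants. The sum itself was 17.5 and 27.8 RPKM in the controls and 42.4 and 61.2 RPKM in the mutants. It could not overlap between the groups, because both genes were already higher in both mutants than in both controls. These ratios are given as a description and were not tested. An exact permutation test of 2 against 2 libraries cannot give a two-sided p below 0.33.

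**Figure D2:**
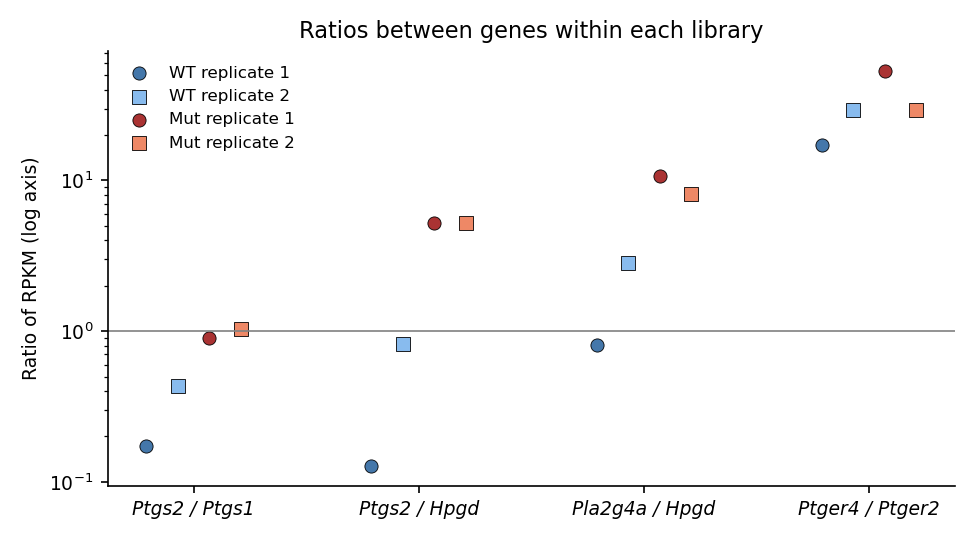
Ratio of the RPKM of pairs of prostaglandin genes within each library, on a log axis, with the grey line at equal levels. The ratio of Ptgs2 to Hpgd is 0.128 and 0.823 in the controls and 5.25 and 5.23 in the mutants, whereas the ratio of Ptger4 to Ptger2 is 29.4 in both replicates 2 and shows no gap between the groups. The ratios to Hpgd had to show a gap, because their genes ran in opposite directions without overlap.

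The terminal synthases differed little. Ptges (Entrez Gene 64292, 3647 bases), which encodes the microsomal synthase often coupled to COX-2, was at 9.85 and 10.8 RPKM in the controls and 8.63 and 10.9 RPKM in the mutants, and the groups overlapped. Its log2 fold change was -0.12 ± 0.15 (edgeR adjusted p = 0.769). Ptges2 (Entrez Gene 96979, 1969 bases), a membrane-associated synthase, was at 11.3 and 12.4 RPKM in the controls and 11.0 and 11.1 RPKM in the mutants, a log2 fold change of -0.14 ± 0.14. Both mutants were just below both controls in Ptges2, and the same was true of Ptgis.

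Ptges3 (Entrez Gene 56351, 1954 bases), which encodes the cytosolic synthase also known as the HSP90 co-chaperone p23, had the highest RPKM of the 10 genes in every library. It was at 42.0 and 62.0 RPKM in the controls and 63.3 and 60.5 RPKM in the mutants, a log2 fold change of 0.21 ± 0.18 (edgeR adjusted p = 0.645). Only control replicate 1 stood low, and without it the log2 fold change was -0.021. The genome annotation also holds the processed pseudogene Ptges3-ps and the related gene Ptges3l, and how shared reads were assigned is not stated. Ptgis (Entrez Gene 19223, 1751 bases), the prostacyclin synthase, was at 16.7 and 16.3 RPKM in the controls and 15.5 and 15.6 RPKM in the mutants, a log2 fold change of -0.13 ± 0.13 (edgeR adjusted p = 0.696). A transcript on the opposite strand, 1110018N20Rik, overlaps an exon of Ptgis.

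Hpgd (Entrez Gene 15446, 1719 bases) encodes the dehydrogenase that starts prostaglandin breakdown, and it was the member most clearly lower in the mutants. It was at 20.3 and 10.2 RPKM in the controls and 3.83 and 5.95 RPKM in the mutants, from 734, 460, 204 and 289 reads. Both mutants were below both controls, by 0.81 on the log2 CPM scale at the narrowest gap, although the controls differed from each other by 1.04. The means were 15.3 ± 7.13 and 4.89 ± 1.50 RPKM (SD, n = 2 each). The log2 fold change of -1.70 ± 0.37 had an adjusted p of 0.115 in edgeR and 0.000243 in DESeq2. It ranged from -2.16 to -1.09 when single libraries were left out.

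Set against the enzymes that make the substrate, Hpgd held a lower share in both mutants than in both controls. The ratio of Pla2g4a to Hpgd RPKM was 0.811 and 2.84 in the controls and 10.7 and 8.07 in the mutants. The ratio of Ptgs1 to Hpgd was 0.736 and 1.89 in the controls and 5.83 and 5.06 in the mutants. Both ratios had to separate the groups, because Pla2g4a and Ptgs1 were higher and Hpgd lower in both mutants than in both controls. The separation thus adds nothing to the values of the single genes. Control replicate 1 had the lowest value of each ratio.

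By mean RPKM, the control order was Ptges3 (52.0), Pla2g4a (22.8), Ptgs1 (17.2), Ptgis (16.5), Hpgd (15.3), Ptges2 (11.8), Ptges (10.3), Ptgs2 (5.51), Ptger4 (4.01) and Ptger2 (0.186). The ranges of neighbours overlapped from Pla2g4a through Ptges2 and between Ptgs2 and Ptger4, so those neighbours cannot be ranked. In the mutants the order was Ptges3 (61.9), Pla2g4a (44.5), Ptgs1 (26.2), Ptgs2 (25.6), Ptgis (15.5), Ptges2 (11.1), Ptges (9.77), Hpgd (4.89), Ptger4 (3.04) and Ptger2 (0.0821). There only Ptgs1 and Ptgs2 overlapped. Ptgs2 was thus below the ranges of Ptgis, Ptges2 and Ptges in the controls and above them in the mutants, and Hpgd was below the range of Ptges in the mutants.

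Of the receptors, Ptger4 (Entrez Gene 19219, 2831 bases) was at 4.13 and 3.88 RPKM in the controls and 2.76 and 3.31 RPKM in the mutants. Both mutants were below both controls, with a log2 fold change of -0.44 ± 0.20 (edgeR adjusted p = 0.353). Ptger2 (Entrez Gene 19217, 3768 bases) was read only 19 and 13 times in the controls and 6 and 12 times in the mutants, which is 0.240, 0.132, 0.0514 and 0.113 RPKM. At this depth its log2 fold change of -1.21 ± 0.61 (edgeR adjusted p = 0.407) rests on very few reads, which covered 9.69% to 31.3% of the gene length. Exons of other genes lie opposite those of Ptger4 (Ttc33) and Ptger2 (Gm17173 and Gm49364), so a part of these reads may belong to them. Per length, EP4 transcripts exceeded EP2 transcripts 17.2 to 53.7 times in each library.

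The other prostanoid receptors were taken from a list of pathway genes, and 5 of its 8 symbols could be tested. All 5 had a negative log2 fold change, as did 6861 of the 14123 tested genes, with a median of -0.72 beside 0.0097 over all tested genes. In 4 of the 5 both mutants were below both controls (19.2% of all tested genes). None passed the edgeR test. Ptgfr, the receptor of prostaglandin F2 alpha, was at 5.02 and 7.58 RPKM in the controls and 3.27 and 3.18 RPKM in the mutants (log2 fold change -1.004 ± 0.207, edgeR adjusted p = 0.105), and DESeq2 called it lower (adjusted p = 0.00255). Ptger3, which encodes the receptor EP3, had few reads, 32 and 12 in the controls and 6 and 4 in the mutants (log2 fold change -2.55 ± 0.76, edgeR adjusted p = 0.187), and its log2 fold change ran from -3.24 to -1.44 when single libraries were left out. Ptger3 entered the test only through the controls, where it was higher, so its negative value partly follows from the filter on counts. The prostacyclin receptor Ptgir was at 3.77 and 4.005 RPKM in the controls and 2.70 and 2.14 RPKM in the mutants (edgeR adjusted p = 0.179).

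The thromboxane receptor Tbxa2r was at 12.9 and 6.88 RPKM in the controls and 6.41 and 6.11 RPKM in the mutants (edgeR adjusted p = 0.345), so its gap came mostly from control replicate 1. Ptger1, which encodes EP1, was at 8.51 to 14.7 RPKM with overlapping groups. Ptger4 made up 20.9% and 30.4% of the summed RPKM of the EP receptors in the controls and 18.7% and 24.1% in the mutants. The prostaglandin D2 receptors Ptgdr and Gpr44 (the older symbol of Ptgdr2) had at most 6 reads in a library and were not tested.

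**Figure D3:**
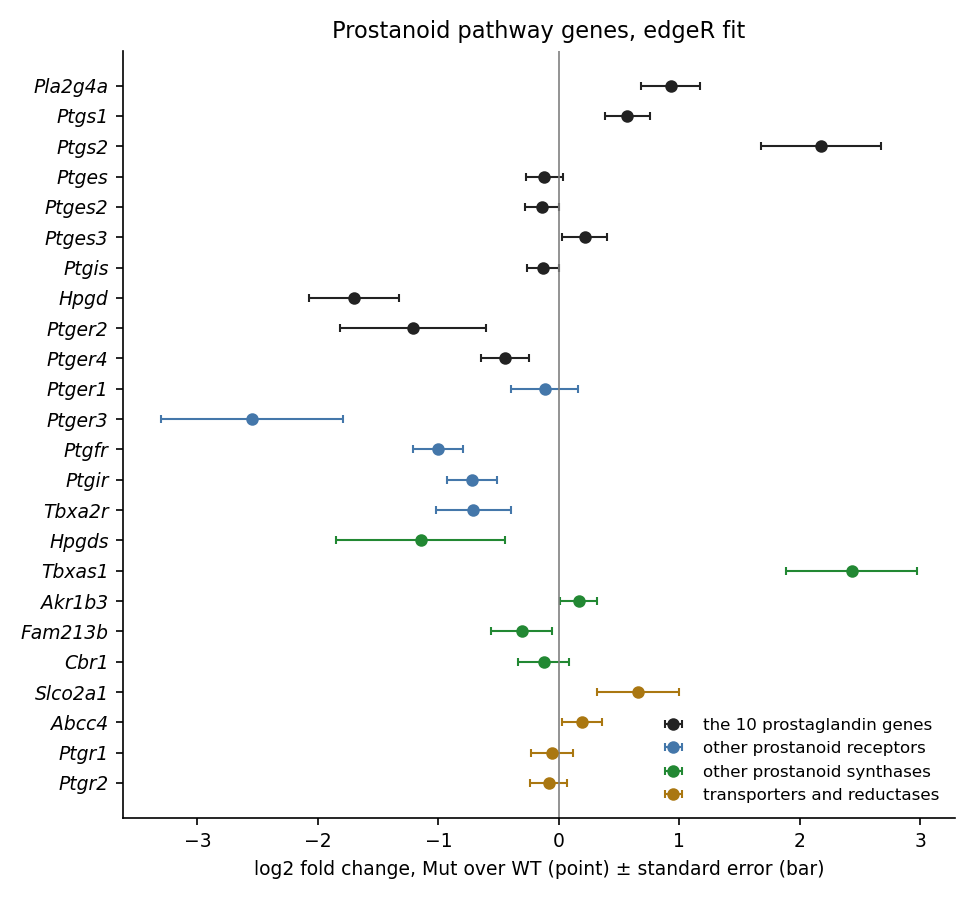
Log2 fold change of mutant over control (points) with the standard error of the edgeR fit (bars) for the 10 prostaglandin genes and the other tested genes of the prostanoid pathway, coloured by role. The receptors lie at or left of 0, from -2.55 (Ptger3) to -0.12 (Ptger1), and Ptgs2 (2.18) and Tbxas1 (2.43) lie farthest to the right. Ptger3 entered the test only through the controls and Tbxas1 only through the mutants, each where it was higher and with few reads.

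Other terminal synthases, transporters and reductases added few differences. Tbxas1, the thromboxane synthase, had 3 and 6 reads in the controls and 26 and 37 in the mutants, a log2 fold change of 2.43 ± 0.54 (edgeR adjusted p = 0.116). It entered the test only through the mutants, so its positive value partly follows from the filter on counts. Hpgds, a prostaglandin D synthase, had 5 to 18 reads in overlapping groups, and Ptgds, the other prostaglandin D synthase, had 1 read in mutant replicate 2 alone. Akr1b3, Fam213b and Cbr1, which encode reductases with prostaglandin synthase or prostaglandin reductase activity, had log2 fold changes of 0.16, -0.31 and -0.13 in overlapping groups. Slco2a1, the carrier that takes prostaglandins into cells for breakdown, was at 12.4 and 28.1 RPKM in the controls and 28.9 and 36.6 RPKM in the mutants (log2 fold change 0.66 ± 0.34, edgeR adjusted p = 0.420). Abcc4, an exporter of prostaglandins, had a log2 fold change of 0.19, and the reductases Ptgr1 and Ptgr2, which act after Hpgd, had values of -0.06 and -0.09. Of the 14 tested genes in the pathway list outside the 10, 4 had a positive and 10 a negative log2 fold change, with a median of -0.12.

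The surrounding pathways were described by further lists. Of 10 tested phospholipase A2 genes other than Pla2g4a, 4 had positive and 6 negative log2 fold changes, with a median of -0.03. By mean RPKM over all 4 libraries, the most abundant of these, Pla2g15, Pla2g6 and Pnpla8, had log2 fold changes of -0.11, -0.32 and -0.05. DESeq2 called 1 of the 10 higher (3.07% of all tested genes) and 1 lower (1.86%), named here after their values were seen. These were Pla2g7, an enzyme that hydrolyses platelet-activating factor, at 1.63 and 3.54 RPKM in the controls and 11.3 and 15.1 in the mutants, and the secreted Pla2g5, at 1.58 and 1.73 RPKM in the controls and 0.332 and 0.314 in the mutants. Their edgeR adjusted p-values were 0.0833 and 0.0789.

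The leukotriene branch, which competes for arachidonic acid, had 8 tested genes, 6 with positive and 2 with negative log2 fold changes, and a median of 0.71. Its most abundant gene, Lta4h, was at 40.5 and 43.8 RPKM in the controls and 39.7 and 39.0 RPKM in the mutants. Alox5ap, the partner of 5-lipoxygenase, was at 4.09 and 2.02 RPKM in the controls and 6.40 and 9.13 RPKM in the mutants (edgeR adjusted p = 0.192), and Ltc4s had 14 to 41 reads in overlapping groups. No gene of this list was called by edgeR or DESeq2, and 2 were higher at an unadjusted edgeR p under 0.05 (9.29% of all tested genes).

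Downstream of EP2 and EP4, all 25 genes of a cyclic AMP list were tested, with a median log2 fold change of 0.14. The most abundant were Gnas, the stimulatory G protein, at 535 and 413 RPKM in the controls and 379 and 413 RPKM in the mutants, and the kinase subunits Prkar1a and Prkaca, with log2 fold changes of 0.02 and -0.10. edgeR called none of the 25, with 7 higher (9.29% of all tested genes) and 1 lower (6.28%) at an unadjusted p under 0.05. DESeq2 called 4 higher (3.07% of all tested genes), which are named here after their values were seen. These were Nr4a1, at 5.09 and 6.14 RPKM in the controls and 12.6 and 20.4 RPKM in the mutants, Nr4a2, Pde3a and Arrb1. The genes Nr4a1 and Nr4a2 encode nuclear receptors induced by many signals, cyclic AMP among them, Pde3a encodes an enzyme that degrades cyclic AMP, and Arrb1 encodes a beta-arrestin, which binds activated receptors.

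Interleukin-1 is a known inducer of Ptgs2 in chondrocytes, and 21 genes of its response list were tested, 10 with positive and 11 with negative log2 fold changes and a median of -0.0013. edgeR called none, with 6 higher (9.29% of all tested genes) and 3 lower (6.28%) at an unadjusted p under 0.05. By mean RPKM over all 4 libraries, the most abundant were the receptor Tnfrsf1a, with a log2 fold change of -0.17, the antagonist Il1rn, at 85.5 and 78.8 RPKM in the controls and 45.4 and 46.4 RPKM in the mutants, and the receptor Il1r1, at 64.6 and 65.6 RPKM in the controls and 42.0 and 34.98 RPKM in the mutants. The edgeR adjusted p was 0.0789 for Il1rn and 0.0901 for Il1r1. DESeq2 called 6 genes higher, named here after their values were seen (Il6, Lif, Nfkbiz, Tnfaip3, Icam1 and Tnfrsf11b), and 3 lower (Il1rn, Il1r1 and Cxcl5), against 3.07% and 1.86% of all tested genes. The cytokine genes themselves were scarcely read, with at most 2 reads of Il1a and at most 1 of Tnf in a library, and Il1b was not listed in any.

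**Figure D4:**
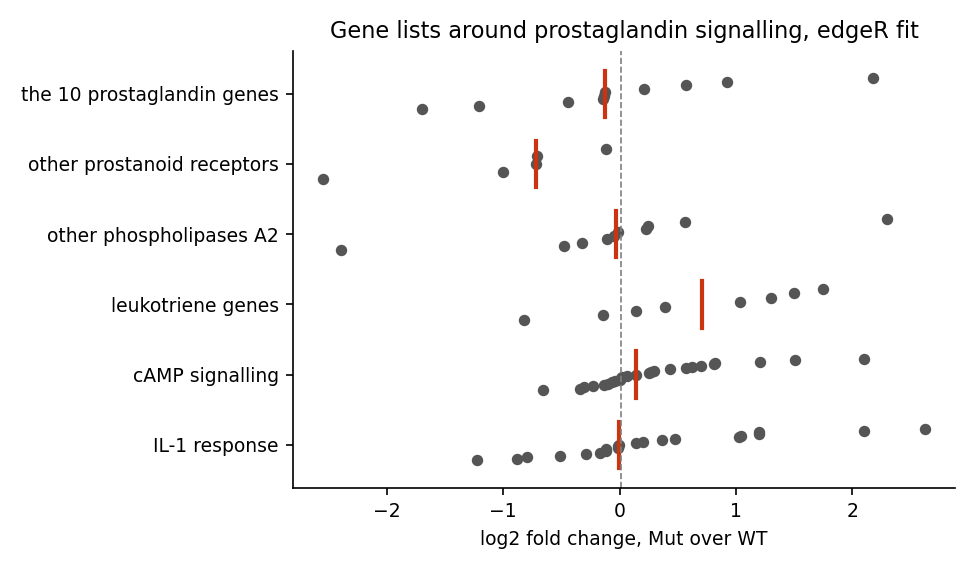
Log2 fold change of mutant over control for each tested gene (grey points) in the 10 prostaglandin genes and 5 surrounding lists, with red bars at the median of each list and a dashed line at the median of all tested genes. The medians run from -0.72 for the other prostanoid receptors to 0.71 for the leukotriene genes, and every list but the receptors has points on both sides of the dashed line. Of the receptors, Ptger3 entered the test only through the controls. Of the leukotriene genes, Alox5 and Ltb4r2 entered it only through the mutants.

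The patterns of Ptgs2 and Ptges across the 4 libraries were also matched to those of other genes, by the Euclidean distance between log2 CPM values centred on each gene's mean. The 5 genes nearest to Ptgs2 were Pkp1 (0.126), Ereg (0.260), Havcr2 (0.295), 9530053A07Rik (0.309) and Ankrd1 (0.361). Of these, Ankrd1 was at a similar level to Ptgs2, with 2.56 and 8.78 RPKM in the controls and 19.8 and 23.6 RPKM in the mutants, and Ereg, an epidermal growth factor receptor ligand, was at 0.564 and 2.24 RPKM in the controls and 4.22 and 6.88 RPKM in the mutants. The genes nearest to Ptges were Sdf2, Nudt17, 9530082P21Rik, Uxt and 6720401G13Rik, with log2 fold changes from -0.14 to -0.10. A distance over 4 libraries is a description of likeness only.

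Other cell types that could add prostaglandin transcripts were read through their markers. Of the macrophage and mast cell list, 7 of 11 symbols could be tested, its summed level was 18.8 to 20.1 RPKM in the controls and 11.5 to 16.6 in the mutants, and Ptprc, the pan-leukocyte marker, had 3 to 6 reads. The gene of the list with the highest level in the controls was Lyz2 (11.1 and 7.85 against 2.53 and 4.76 RPKM), while Cd14 was higher in both mutants. Kit, a marker of mast cells, had 5 and 5 reads in the controls and 53 and 63 in the mutants, and it entered the test only through the mutants. The other mast cell markers of the list were nearly absent, with at most 3 reads of Cpa3 in a library and Mcpt4 not listed in any. The endothelial list summed to 0.901 to 1.57 RPKM in every library, and the platelet list to 7.15 to 9.93, with Gp9 not listed. No blood marker had enough reads to be tested, and Hbb-b1 was not listed in any library. Striated muscle markers summed to 27.5 and 7.66 RPKM in the controls and 39.3 and 48.8 in the mutants. The osteoblast list summed to 186 and 83.1 RPKM in the controls and 31.5 and 52.6 in the mutants. Its order across the libraries was that of Hpgd (20.3, 10.2, 3.83 and 5.95 RPKM). The macrophage and mast cell sum had the same order. So did the chondrocyte sum (840, 839, 407 and 538 RPKM), although its 2 controls were nearly equal while those of Hpgd were not. The order was thus not particular to the osteoblast list. The part of these markers in the differences of Hpgd and of the cyclooxygenases was not tested.

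The calls depended on single libraries. Without control replicate 2, edgeR called 5 of the 10 genes, namely Pla2g4a (adjusted p = 7.86e-05), Hpgd (0.00102), Ptgs2 (0.0125), Ptgs1 (0.0227) and Ptges3 (0.0293), in a fit that called 1331 genes higher and 1492 lower in all. Without control replicate 1 it called Hpgd (0.0308) and Pla2g4a (0.0253), beside 525 genes higher and 149 lower in all. Without mutant replicate 2 only Hpgd (0.0404) was called, beside 96 higher and 47 lower in all, and without mutant replicate 1 no member was, beside 333 higher and 92 lower. In each of these fits the group left with 1 library is assumed to vary like the other. The direction of Pla2g4a, Ptgs1, Ptgs2 and Hpgd was the same in all 11 alternatives run.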

How the data were processed

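Polyadenylated RNA of 4 cultures (2 mutant, 2 control) was sequenced by a service. Per library, the authors deposited a raw read count for every gene, its RPKM (the count scaled to the length of the gene and to all counted reads) and the percent of its length that reads cover. The submitters' processing notes name mm9 and SAMtools, and the aligner, the counting tool and the annotation are not given in the sources used here. No coordinate from the files was used, and promoter windows came from RefSeq on GRCm38.p6. Genes absent from a library's list were given a count of 0.

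From the counts, edgeR 4.0.16 in R 4.3.3 gave a robust quasi-likelihood test after TMM normalization. A gene entered it with 10 or more counts in 2 or more libraries. The p-values were adjusted over all 14123 tested genes by the Benjamini-Hochberg method, with a threshold of 0.05. The standard error of a fold change comes from its F statistic. RPKM levels were used as deposited, and SDs are over 2 libraries. The TMM factors were between 0.966 and 1.03. Counts of the control pair and of the mutant pair differed far beyond sampling noise (chi-square over its degrees of freedom of 40.8 and 20.1). Neither pair was thus 1 library read again. This check does not tell whether the libraries of a pair came from separate embryos or cultures. The fit was tested on simulated data with known changes, in which all genes were given the same dispersion (spread beyond sampling noise). Genes of these data differ in their spread, so that test does not show how well the fit finds changes here.

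The alternatives were DESeq2 1.42.0, RLE size factors, no filter on low counts, at least 10 counts in every library, limma 3.58.1 on log2(RPKM + 1) and log2(RPKM + 0.1), a block for the replicate number, and fits without each library in turn. The 10 genes and the lists around them were chosen with earlier results of these data known. Genes named were the 10, Senp6, every prostanoid list gene with a read, and of each other list those past the threshold or otherwise the 3 with the highest mean RPKM. Genes named outside this rule are marked as such. Opposite-strand exons were looked up in the GENCODE annotation of GRCm38.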

Additional observations from a re-analysis of the deposited data

How the results depend on the processing

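With 2 libraries in each group, few reads on genes such as Ptger2 and controls that differ from each other, the number of calls depended on the processing. edgeR called no gene in either direction with TMM or RLE size factors or with at least 10 counts in every library, and limma called none. DESeq2 called 434 genes higher and 263 lower, among them 2 of the 10 genes, 1 of the prostanoid list, 2 phospholipase, 4 cyclic AMP and 9 interleukin-1 response genes. Without a filter on low counts edgeR called 225 higher and 61 lower, with 1 prostanoid, 2 phospholipase, 2 cyclic AMP and 6 interleukin-1 response genes. With a block for the replicate number it called 84 higher and 33 lower, with 1 of the 10 genes, 1 phospholipase, 1 cyclic AMP and 3 interleukin-1 response genes. Same-numbered libraries did not deviate together (correlation of -0.0422 across genes). With 2 libraries in each group this cannot tell whether the numbers mark pairs, and the labels do not say. Leaving out each library in turn gave 96 to 1331 genes higher and 47 to 1492 lower. The calls were then 0 to 5 of the 10 genes, 0 to 7 prostanoid, 2 to 4 phospholipase, 0 to 2 leukotriene, 1 to 8 cyclic AMP and 3 to 9 interleukin-1 response genes. The highest numbers came without control replicate 2. Of the values of the 10 genes under alternatives, 96 kept their direction and their side of the threshold, 11 passed it in the same direction and 2 turned in direction. Ptges ranged from -0.28 to 0.0203 in log2 fold change, positive only without mutant replicate 1, and Ptges3 from -0.0211 to 0.46, negative only without control replicate 1. Ptger2 ranged from -1.84 to -0.13 and was not among the genes with at least 10 counts in every library. The cause of these differences was not tested.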
